A study of Mus musculus with 43 samples.

Results

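EKLF occupancy was examined at the genes for the translation initiation factors (eIFs), taken as every protein-coding gene of the RefSeq gene table whose symbol begins with Eif1 to Eif6, the Eif2ak kinases included. The rule found 56 of 21900 protein-coding genes. Eif2s3y, on the Y chromosome, had 0 regions in either genotype and was set aside with the other Y-linked genes, which left 55 members among 21521 genes compared. The material was fetal liver of E13.5 embryos, dispersed and labelled primary erythroid, from Nan/+ embryos, which carry 1 Nan allele of Klf1 beside a normal one, and from their wild-type (WT) littermates of the Nan strain. Klf1 encodes EKLF, a zinc-finger activator of red cell genes, and Nan is a missense change in a zinc finger that alters which DNA sites the protein binds. Nan/+ cells hold both forms of EKLF, and the chromatin immunoprecipitation (ChIP) used the antibody 7B2a in both genotypes, so occupancy by normal and mutant protein in Nan/+ cannot be told apart. For each genotype the authors deposited 1 set of regions, drawn jointly from 3 ChIP libraries, of 72023512 to 100763687 tags in Nan/+ and 74140385 to 103170594 tags in WT. The lists hold 15564 Nan/+ and 9181 WT regions without a strength and without values per replicate, so no difference between genotypes below has a replicate check or a test. Regions lay at all 6 erythroid marker genes examined in either list, at 2 of 5 hepatoblast markers in each list, at 1 of 3 macrophage markers in each list, and at 1 Nan/+ and 0 WT of 3 megakaryocyte markers. Over all genes compared, 37.5% had a Nan/+ region and 33.5% a WT region, so the hepatoblast and macrophage counts were near the share of all genes. Whole fetal liver also holds hepatoblasts, macrophages and megakaryocytes, and their part in the results was not tested.

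Initiation is the step at which ribosomes find the start codon of a messenger RNA. eIF2 brings the initiator tRNA in a ternary complex with GTP, eIF2B recharges eIF2 with GTP, and stress kinases of the Eif2ak family block that recharging by phosphorylating the alpha subunit. eIF4E, eIF4G and eIF4A recognise and unwind the capped end of the message, eIF3 joins it to the small ribosomal subunit, and eIF1, eIF1A and eIF5 set the accuracy of start codon choice. Red cell precursors devote much of their translation to globin, and in them the heme-regulated kinase HRI, the product of Eif2ak1, ties initiation to the supply of heme.

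Most initiation factor genes had an EKLF region in their body or within 10 kb of either end. In Nan/+ 37 of 55 members (67.3%, exact Clopper-Pearson 95% interval 53.3 to 79.3%) had a region, against 37.5% of all genes compared. In WT 39 of 55 members (70.9%, 57.1 to 82.4%) had one, against 33.5% of all genes. Members were about as long as other genes, with a median of 17815 bp against 17375 bp. When all genes were weighted to the members' lengths over 10 length strata, the shares of all genes were 38.5% in Nan/+ and 36.2% in WT. The intervals cover counting error only, and genes are not replicates of a genotype, so the shares are a description of these lists. With the gene body alone, 18 members had a Nan/+ region and 19 a WT region, against 23.5% of all genes in Nan/+ and 18.1% in WT. In other housekeeping families, 57 of 85 cytoplasmic ribosomal protein genes (67.1%) had a region in Nan/+ and 56 of 85 (65.9%) in WT. Of 40 genes with proteasome subunit symbols, 22 had one in each list. These 40 include Psmc3ip, which does not encode a subunit and had 2 regions in each list. Median lengths were 3175 bp for the ribosomal protein genes and 11930 bp for these 40, and neither share was weighted for length. More than 1 region lay at 18 members in Nan/+ (32.7%, against 17.2% of all genes) and at 16 members in WT (29.1%, against 12.9%).

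**Figure D1:**
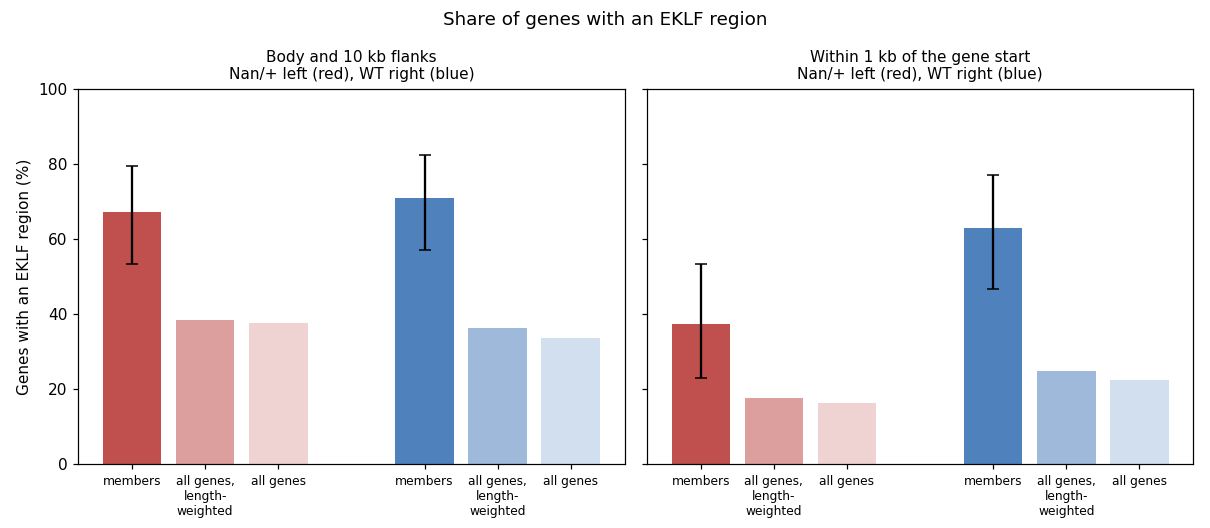
Share of genes with an EKLF region (%), for the body with 10 kb flanks (left panel) and within 1 kb of the gene start (right panel), in Nan/+ (red) and WT (blue). In each set of bars the members stand first, then all genes weighted to the members' lengths, then all genes; error bars are exact 95% intervals for counting error. At gene starts the members' share was 37.2% in Nan/+ and 62.8% in WT.

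Both genotypes had a region at 29 of the 55 members, against 23.5% of all genes. Nan/+ alone had a region at 8 members (14.5%), close to the 14.1% of all genes, and WT alone at 10 members (18.2%), against 10.1% of all genes. The remaining 8 had no region in either list, against 52.4% of all genes. These were Eif2a, Eif2ak2, Eif2b2, Eif3f, Eif3j2, Eif3m, the eIF4A3-like gene Eif4a3l1 and Eif4e1b, an oocyte form of the cap-binding protein. Presence in both lists did not mean the same position: a region overlapping one of the other list by at least 1 bp, called shared below, lay at 16 members (29.1%), against 13.3% of all genes. Among genes with a region in both lists, the share with a shared region was near that of all genes, at 16 of 29 members (55.2%) and 56.8% of 5048 genes. Counted by region, 18 of the members' 65 Nan/+ regions (27.7%) were shared, against 16.4% over all genes, and 16 of their 64 WT regions (25.0%), against 26.0% over all genes. Under a reciprocal overlap of 50% the members' shares were 10.8% in Nan/+ and 10.9% in WT, against 9.41% in Nan/+ and 15.1% in WT over all genes. Of the 16 members, 10 had a shared region within 1 kb of their own start, and Eif3h and Eif6 had no listed start to count from. A shared pair was centred 153 bp (Nan/+) and 39 bp (WT) from an end of Eif3h. At Eif6 a shared pair was centred 137 bp (Nan/+) and 228 bp (WT) from a gene end. At 5 a shared region lay within 1 kb of the start of a neighbouring gene: Actn4 at Eif3k, Senp3 at Eif4a1, Hp1bp3 at Eif4g3, Rpl22l1 at Eif5a2 and BC029722 at Eif6.

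**Figure D2:**
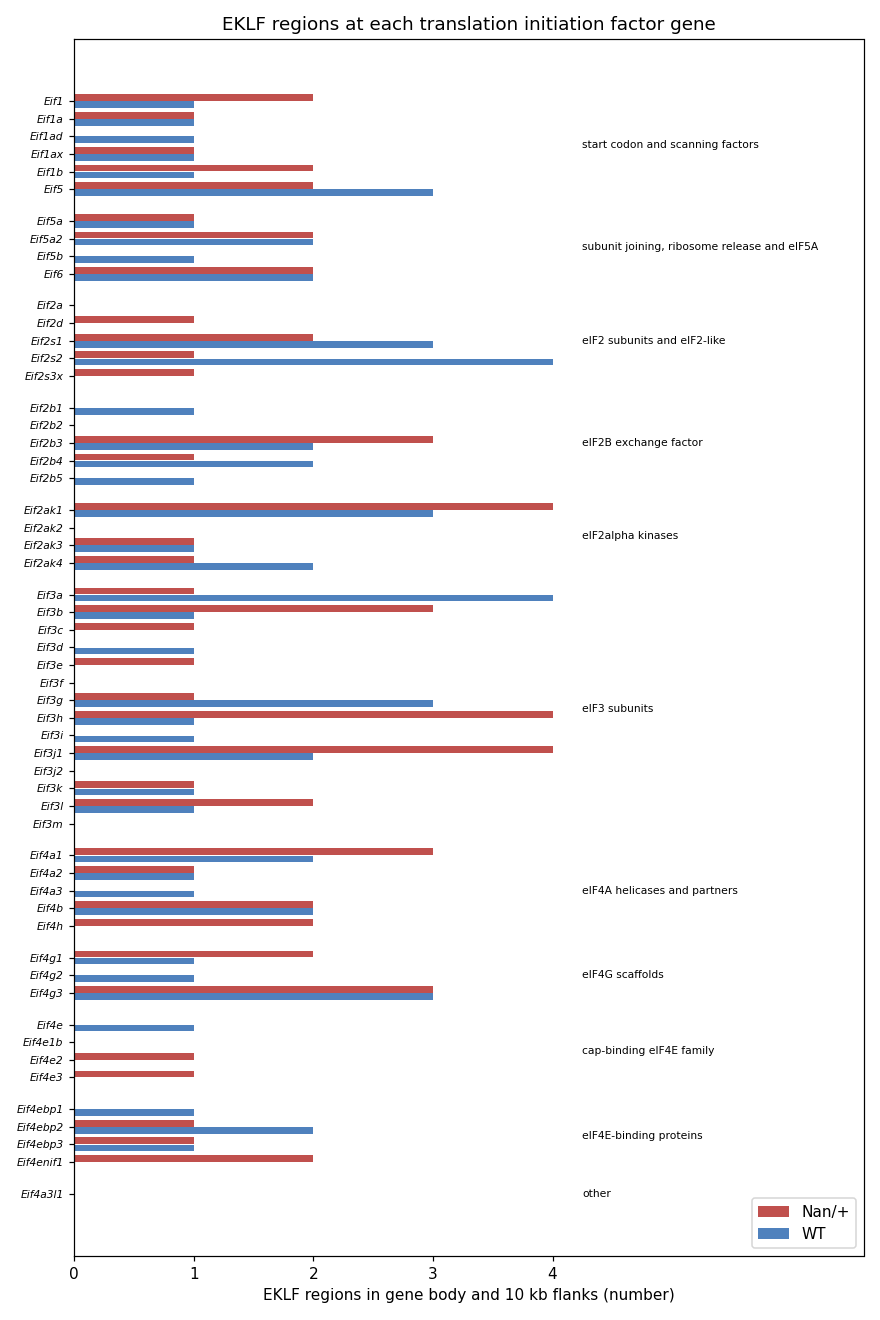
Number of EKLF regions in the body and 10 kb flanks of each of the 55 members, grouped by role, with Nan/+ (red) above WT (blue). No member had more than 4 regions in a list; Eif2s2 and Eif3a had 1 in Nan/+ and 4 in WT, and Eif3h had 4 in Nan/+ and 1 in WT.

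At gene starts fewer members had a Nan/+ region than a WT region. Starts and strands came from a RefSeq promoter table with an entry for 43 of the 55 members. Within 1 kb of the start, 16 of 43 members (37.2%, 95% interval 23.0 to 53.3%) had a Nan/+ region, against 16.4% of 17274 genes with an entry. The WT list had one at 27 of 43 members (62.8%, 46.7 to 77.0%), against 22.4% of genes. More genes with a WT than a Nan/+ region at the start were also found in other housekeeping families. Of 65 cytoplasmic ribosomal protein genes with an entry, 20 had a Nan/+ region there and 34 a WT region. Of 33 genes with proteasome subunit symbols and an entry, 8 had a Nan/+ region there and 13 a WT region. Both lists had a region at the start of 13 members (9.97% of all genes), Nan/+ alone at 3 (6.44%) and WT alone at 14 (12.4%), and 13 had none there (71.2%). The 3 with a Nan/+ region alone at the start were Eif3c, Eif4h and Eif5a. The region of Eif5a was centred 771 bp downstream of the nearest listed start and 2099 bp from the nearest gene end. The 14 with a WT region alone were Eif2s1, Eif2s2, Eif2b1, Eif2b4, Eif3a, Eif3d, Eif3l, Eif4a3, Eif4b, Eif4g3, Eif4ebp2, Eif5b, Eif5a2 and Eif1ad. Members without an entry were Eif1a, Eif2b3, Eif3e, Eif3h, Eif3i, Eif3j2, Eif4e1b, Eif4e3, Eif4ebp1, Eif4ebp3, Eif4g2 and Eif6.

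Counted as regions, the members held 65 Nan/+ and 64 WT regions. Of the 65 Nan/+ regions, 27 (41.5%) lay within 1 kb of a start of some protein-coding gene, against 20.9% of all Nan/+ regions assigned to genes. Of the 64 WT regions 39 (60.9%) did so, against 44.8% of all such WT regions. Of the Nan/+ regions 25 (38.5%) had the minimum width of 176 bp, against 51.9% over all genes, and 0 of the WT regions had that list's minimum of 126 bp. Width depends on the calling settings, which differed between the lists, so widths are compared within a list. Nan/+ regions had a median width of 346 bp at the members' own starts and 198.5 bp farther away, and WT regions 411 bp at the starts and 349 bp away. Of the regions at the members' own starts, 11 of 18 Nan/+ and 10 of 29 WT were shared, against 4 of 34 in Nan/+ and 3 of 25 in WT farther away. Over all genes with an entry the shared part was 51.4% in Nan/+ and 37.6% in WT at the starts, and 11.7% in Nan/+ and 21.3% in WT farther away. The shared Nan/+ regions were also wider, with a median of 346 bp against 176 bp for the others, and the part of width in the sharing was not tested. Of the members' regions, 31 of 65 in Nan/+ and 34 of 64 in WT were also assigned to another gene, and 9 in Nan/+ and 15 in WT lay within 1 kb of that other gene's start.

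**Figure D3:**
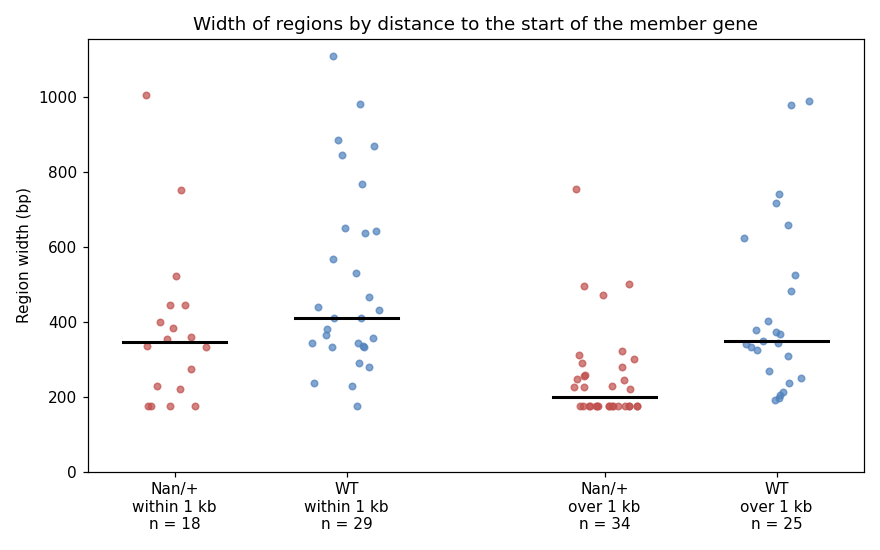
Width in bp of each region at a member with a known start, within 1 kb of that start (left pair) and over 1 kb from it (right pair), with Nan/+ left of WT in each pair; points are regions and bars are medians. Of the 34 Nan/+ regions away from starts, 17 have the minimum width of 176 bp.

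Of the 6 genes of start codon recognition, 5 had a Nan/+ region and all 6 a WT region, and 4 had a shared one. Over all genes compared, 37.5% had a Nan/+ region, 33.5% a WT region and 13.3% a shared one. The groups by role hold few genes each, and their counts were not weighted for length. The gene without a Nan/+ region was Eif1ad. Eif1ad encodes a protein with an eIF1A-like domain and had 1 WT region of 334 bp, 160 bp downstream of its start and within 1 kb of the start of Banf1. Eif1, whose product guards against wrong start codons, had Nan/+ regions at chr11:100319072-100320077 (1006 bp) and chr11:100320408-100320636 (229 bp). A single WT region at chr11:100319682-100320662 (981 bp) overlapped both. Its paralogue Eif1b, on chromosome 9, also had 2 Nan/+ regions and 1 WT region near the start. Nan/+ regions of 221 bp and 337 bp, centred 253 bp upstream and 604 bp downstream of the start (chr9:120492243-120492463 and chr9:120493042-120493378), lay on either side of a WT region of 432 bp centred 227 bp downstream (chr9:120492617-120493048). The downstream Nan/+ region overlapped the WT region by 7 bp and the upstream one ended 153 bp before it. Eif5, which encodes the GTPase activator of eIF2, had Nan/+ regions of 401 and 259 bp, against WT regions of 845, 526 and 268 bp. The Nan/+ region of 401 bp (chr12:111537694-111538094) lay wholly inside the WT region of 845 bp (chr12:111537458-111538302). Eif1ax, the X-linked gene for eIF1A, had a Nan/+ region of the minimum width at chrX:159371982-159372157 and a shared WT region of 345 bp at chrX:159371792-159372136. At its autosomal copy Eif1a a Nan/+ region of 448 bp and a WT region of 269 bp did not overlap. Reads of near-identical copies can be placed on either one, and how the authors treated such reads is not given in the sources used here.

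Of the 43 promoter windows, 9 lay under a region in both lists, 3 under a Nan/+ region alone and 17 under a WT region alone. Thus 12 of 43 lay under a Nan/+ region, 26 under a WT region and 14 under neither. Of the 17274 windows of all genes, 2103 lay under a Nan/+ region, 3367 under a WT region and 13080 under neither. Of the 9 members' windows under both, the 6 with the widest WT regions are shown because a region of each list reached into the window. At Eif1b the regions of the lists lay at separate places in the window, 153 bp apart. Each is the RefSeq promoter window on build GRCm38.p6 (mm10), from 250 bases before to 50 after the start, read on the gene's strand, which was the plus strand in all 6. Capitals mark matches to CCNCNCCC, the general form of the EKLF recognition site, on either strand. The windows lie at chr16:23107218-23107517 (Eif4a2), chr11:100319699-100319998 (Eif1), chr12:111537851-111538150 (Eif5), chr2:122028330-122028629 (Eif3j1), chr9:120492356-120492655 (Eif1b) and chr6:70844265-70844564 (Eif2ak3).
Eif4a2: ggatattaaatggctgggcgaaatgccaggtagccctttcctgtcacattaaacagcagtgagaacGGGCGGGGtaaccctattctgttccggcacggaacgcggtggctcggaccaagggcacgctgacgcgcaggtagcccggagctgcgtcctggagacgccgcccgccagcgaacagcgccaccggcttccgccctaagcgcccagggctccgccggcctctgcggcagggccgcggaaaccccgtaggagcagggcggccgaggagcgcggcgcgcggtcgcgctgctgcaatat
Eif1: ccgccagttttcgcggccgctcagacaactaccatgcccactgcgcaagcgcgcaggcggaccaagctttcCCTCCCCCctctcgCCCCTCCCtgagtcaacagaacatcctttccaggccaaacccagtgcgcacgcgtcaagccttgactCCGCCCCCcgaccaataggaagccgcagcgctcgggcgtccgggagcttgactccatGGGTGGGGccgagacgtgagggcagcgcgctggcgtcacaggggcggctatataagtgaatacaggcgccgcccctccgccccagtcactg
Eif5: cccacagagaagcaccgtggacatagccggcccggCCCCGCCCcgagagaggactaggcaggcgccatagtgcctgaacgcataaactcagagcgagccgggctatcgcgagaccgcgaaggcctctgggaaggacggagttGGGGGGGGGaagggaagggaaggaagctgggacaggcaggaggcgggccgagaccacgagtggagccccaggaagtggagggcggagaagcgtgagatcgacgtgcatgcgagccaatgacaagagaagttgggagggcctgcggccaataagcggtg
Eif3j1: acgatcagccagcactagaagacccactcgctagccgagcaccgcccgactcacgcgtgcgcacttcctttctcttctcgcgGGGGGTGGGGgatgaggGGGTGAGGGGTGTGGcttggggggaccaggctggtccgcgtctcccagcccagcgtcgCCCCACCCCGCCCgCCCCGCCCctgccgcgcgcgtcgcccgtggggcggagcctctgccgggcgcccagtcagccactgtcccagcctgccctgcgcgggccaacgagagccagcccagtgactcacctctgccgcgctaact
Eif1b: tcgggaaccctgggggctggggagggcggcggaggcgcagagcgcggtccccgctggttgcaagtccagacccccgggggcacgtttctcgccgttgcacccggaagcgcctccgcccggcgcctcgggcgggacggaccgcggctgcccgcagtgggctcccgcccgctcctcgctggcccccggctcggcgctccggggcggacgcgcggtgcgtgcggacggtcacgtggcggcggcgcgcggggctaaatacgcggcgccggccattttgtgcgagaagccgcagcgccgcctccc
Eif2ak3: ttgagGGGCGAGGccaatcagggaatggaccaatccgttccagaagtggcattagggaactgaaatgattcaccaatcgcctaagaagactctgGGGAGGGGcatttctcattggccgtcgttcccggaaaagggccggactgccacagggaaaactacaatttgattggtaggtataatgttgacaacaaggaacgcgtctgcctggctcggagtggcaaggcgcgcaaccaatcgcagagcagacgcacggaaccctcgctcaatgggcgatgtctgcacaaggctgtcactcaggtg

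The 6 promoters differed in their content of CCNCNCCC. Eif3j1 held 7 matches, overlapping ones counted, Eif1 held 4, Eif5 held 3, Eif2ak3 held 2, Eif4a2 held 1 and Eif1b held 0. Over the 43 members with an entry, 27 (62.8%) held at least 1 match, against 56.4% of the promoters of all 17274 genes. Among members it was in 9 of 12 promoters under a Nan/+ region (75.0%), 16 of 26 under a WT region (61.5%) and 9 of 14 under neither (64.3%). Over all genes the same shares were 76.3% under a Nan/+ region, 76.0% under a WT region and 50.4% under neither. The shorter GC-rich motif CCGCCC, which can overlap CCNCNCCC, was in 31 of 43 member promoters (72.1%), against 46.9% of all promoters. It was in 10 of 12 member promoters under a Nan/+ region, 21 of 26 under a WT region and 7 of 14 under neither (83.3%, 80.8% and 50.0%). Over all genes it was in 78.2% under a Nan/+ region, 78.5% under a WT region and 37.1% under neither, so the members under a region were near the share of all such genes. CCACACCC, the form known from the adult beta-globin promoter and 1 case of CCNCNCCC, occurred in 3 member promoters (Eif2ak4, Eif3j1 and Eif5a2) against 3.65% of all. The GATA motif AGATAA occurred in 2 (Eif3c and Eif4a3l1), against 10.0% of all. Both strands were searched for each motif, and a match describes letters in the window, not a bound site.

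**Figure D4:**
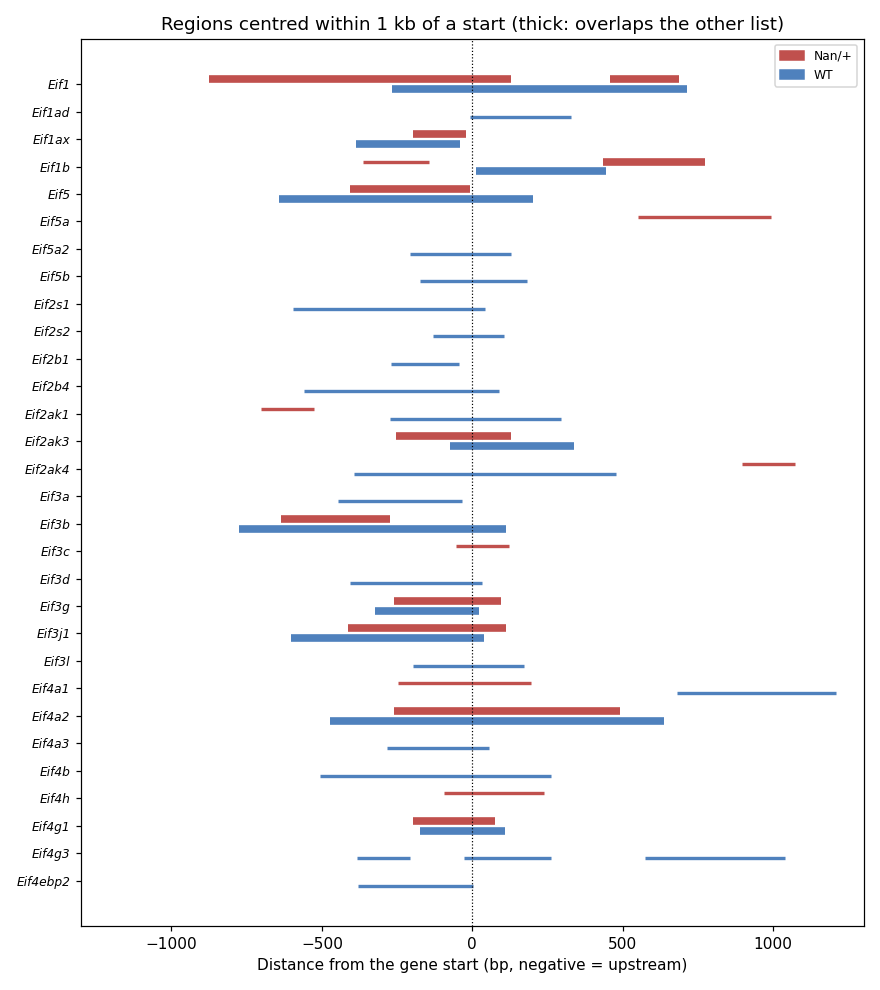
Regions centred within 1 kb of the start of each member with an entry, drawn to scale by distance from the start in bp (negative is upstream), with Nan/+ (red) above WT (blue); thick bars overlap a region of the other list. Nan/+ regions lie at 16 of these genes and WT regions at 27; at Eif2ak1 and Eif2ak4 the Nan/+ region lies apart from the WT one.

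Among the eIF2alpha kinases, Eif2ak1, Eif2ak3 and Eif2ak4 had regions in both lists and Eif2ak2, which encodes the double-stranded RNA kinase PKR, had 0 in both. Eif2ak1, the gene for HRI, had 4 Nan/+ and 3 WT regions and 0 were shared. The Nan/+ region nearest its start (chr5:143817091-143817266) had the minimum width and was centred 613 bp upstream. The WT list had a region of 567 bp over the start (chr5:143817519-143818085), centred 10 bp into the gene and 252 bp from the Nan/+ one. The other Nan/+ regions at Eif2ak1 were chr5:143885723-143885970 (248 bp) inside the gene, chr5:143900603-143900778 (176 bp) inside the gene and chr5:143909285-143909460 (176 bp) in the flank, within 1 kb of the starts of Aimp2 and Pms2. The other WT regions, chr5:143904436-143904784 and chr5:143906166-143906883, lay beyond the gene within Aimp2. Aimp2 encodes a scaffold of the tRNA synthetase complex. Eif2ak4, the gene for the amino acid sensor GCN2, had a Nan/+ region of the minimum width centred 985 bp downstream of the nearest listed start (chr2:118390009-118390184), against a WT region of 871 bp over its start (chr2:118388223-118389093), 915 bp away. A second WT region, chr2:118479560-118479808, lay at the start of Srp14. Eif2ak3, the gene for the endoplasmic reticulum kinase PERK, was the only kinase gene with a shared region: 383 bp in Nan/+ (chr6:70844261-70844643) and 410 bp in WT (chr6:70844442-70844851), overlapping by 202 bp.

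For the eIF2 subunits and the eIF2-like Eif2a and Eif2d, 4 of 5 genes had a Nan/+ region and 2 of 5 a WT region. The shares over all genes were 37.5% in Nan/+ and 33.5% in WT. None of these genes or of the 5 eIF2B genes had a shared region, where the share over all genes was 13.3%, so little can be read from 0 in so short a list. Eif2s1 encodes the alpha subunit that the kinases phosphorylate. Its Nan/+ regions were both of the minimum width, chr12:78860848-78861023, in Atp6v1d, and chr12:78880183-78880358, inside the gene. Its WT regions were chr12:78861476-78862112 (637 bp), which covers the start and lies within 1 kb of that of Atp6v1d, chr12:78864458-78864783 (326 bp) and chr12:78871306-78871509 (204 bp). Eif2s2, the beta subunit gene, had 1 Nan/+ region of 221 bp, against 4 WT regions of which the widest (978 bp) lay beyond the end of the gene, inside Raly. Eif2s3x, the gamma subunit gene, had 1 Nan/+ region of 176 bp and 0 in WT, and so had Eif2d, whose region lay where Rassf5 overlaps it. Of the 5 eIF2B subunit genes, 2 had a Nan/+ region and 4 a WT region. Eif2b3 had 3 Nan/+ and 2 WT regions inside its body of 67454 bp, without overlap. The WT regions of Eif2b1 and Eif2b4 at the start (228 bp and 650 bp) also lay within 1 kb of the start of Gtf2h3 and of Snx17, and the only region of Eif2b5 lay at Dvl3, so a neighbour cannot be told apart from the member at these genes.

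Of the 14 eIF3 subunit genes, 9 had a Nan/+ region and 9 a WT region, 7 had both and 5 had a shared region. Over all genes these shares were 37.5% for Nan/+, 33.5% for WT, 23.5% for both and 13.3% for a shared region. Shared regions at the start were found at Eif3b (361 bp in Nan/+ and 886 bp in WT, chr5:140418670-140419030 and chr5:140418531-140419416), Eif3g (355 bp and 343 bp, chr9:20898495-20898849 and chr9:20898570-20898912) and Eif3j1 (523 bp and 643 bp, chr2:122028168-122028690 and chr2:122027977-122028619). These genes encode a scaffold subunit, an RNA-binding subunit and a loosely held subunit of the complex. Eif3h had 4 Nan/+ regions and 1 WT region, and the shared one was just beyond the higher-coordinate end of the gene (chr15:51865466-51865762 in Nan/+ and chr15:51865369-51865631 in WT). The shared region of Eif3k was centred 9106 bp beyond the gene in Nan/+ and 9050 bp in WT, at the start of Actn4 (chr7:28962105-28962426 in Nan/+ and chr7:28962133-28962510 in WT). Eif3a, the gene of the largest scaffold subunit, had 1 Nan/+ region of the minimum width in the flank, against 4 WT regions, 1 of them of 411 bp at the start. Eif3c and Eif3e had 1 Nan/+ region each and 0 in WT, and Eif3d and Eif3i 0 in Nan/+ and 1 in WT each. The WT region of Eif3i (704 bp) also lay at the start of Tmem234. Of the paralogues Eif3j1 and Eif3j2, the first had 4 Nan/+ and 2 WT regions and the second 0.

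Of the helicase group of eIF4A and its partners, 4 of 5 genes had a region in each list, against 37.5% of all genes in Nan/+ and 33.5% in WT. Eif4a2 carried the widest overlap at a start, a Nan/+ region of 751 bp (chr16:23107209-23107959) wholly inside a WT region of 1109 bp (chr16:23106996-23108104). Eif4a1, the main helicase gene of growing cells, had a Nan/+ region of 445 bp over the start and a WT region of 531 bp centred 944 bp into the gene, 482 bp apart, so the start itself was covered only in the Nan/+ list. Its shared region lay at Senp3 (chr11:69681843-69682343 in Nan/+ and chr11:69681702-69682075 in WT). Eif4h, whose product stimulates the helicase, had 2 Nan/+ regions, 1 of them of 332 bp at the start, and 0 in WT. Eif4b, with the same function, had 2 regions in each list; the nearest to the start was centred 5314 bp upstream in Nan/+, against one of 768 bp over the start in WT. Eif4a3, a component of the exon junction complex, had 0 in Nan/+ and 1 of 337 bp in WT.

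The eIF4G scaffold genes had a Nan/+ region at 2 of 3 and a WT region at all 3, against 37.5% and 33.5% of all genes. Eif4g1 had a region at the start in both lists, 274 bp in Nan/+ (chr16:20672529-20672802) and 281 bp in WT (chr16:20672555-20672835), with centres 29 bp apart. Eif4g2, which encodes a scaffold that does not bind eIF4E, had 0 in Nan/+ and the widest WT region of all members, 1279 bp at chr7:111082679-111083957, over the higher-coordinate end of the gene. Eif4g3, the longest member at 215308 bp, had 3 regions in each list. Its Nan/+ regions were 227 bp and 176 bp wide, 5850 bp and 19888 bp downstream of the nearest listed start, and 756 bp wide at Hp1bp3 (chr4:138216707-138217462), the shared one, and its WT regions of 175, 290 and 466 bp all lay within 1 kb of a listed start. The widest Nan/+ region of all members was the one of 1006 bp at Eif1.

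The 4 genes of the cap-binding eIF4E family had 2 regions in Nan/+ and 1 in WT, each at a different gene, and 0 were shared. Over all genes, 37.5% had a Nan/+ region, 33.5% a WT region and 13.3% a shared one, so little can be read from 0 in 4 genes. Eif4e itself had 0 in Nan/+ and 1 WT region of 191 bp inside the gene, whereas Eif4e2 and Eif4e3 had 1 Nan/+ region of 176 bp each and 0 in WT. The eIF4E-binding proteins, which hold eIF4E back, had 4 regions in each list over 4 genes. Eif4ebp1, a target of mTOR signalling, had 0 in Nan/+ and a WT region of 453 bp at chr8:27261092-27261544, centred 991 bp inside the lower-coordinate end. Eif4ebp2 had a Nan/+ region of 176 bp in the flank (chr10:61426764-61426939), against WT regions of 382 bp at the start (chr10:61452668-61453049) and 197 bp inside the gene (chr10:61437398-61437594). At Eif4ebp3 the Nan/+ region lay in Apbb3 and the WT region in Sra1. Eif4enif1, which encodes a transporter of eIF4E, had 2 Nan/+ regions, of 176 and 246 bp, and 0 in WT.

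Of the 4 genes for subunit joining, ribosome release and eIF5A, 3 had a Nan/+ region, all 4 a WT region and 2 a shared one. Over all genes these shares were 37.5%, 33.5% and 13.3%. Eif6, which keeps the large ribosomal subunit from joining early, had 2 in each list and all were shared, as 228 bp and 259 bp in Nan/+ (chr2:155819222-155819449 and chr2:155826659-155826917) and 440 bp and 196 bp in WT (chr2:155818938-155819377 and chr2:155826599-155826794). Eif5b, which promotes that joining, had 0 in Nan/+ and 1 WT region of 356 bp at the start, also within 1 kb of the start of Txndc9. Eif5a, which encodes a hypusine-modified factor, had 1 region in each list at separate places, and Eif5a2 had 2 in each, the shared pair at Rpl22l1 (chr3:28805050-28805362 in Nan/+ and chr3:28804951-28805692 in WT).

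Across starts with a region in both lists, 10 of 13 members (76.9%) had an overlapping pair, against 87.8% of the 1722 genes with a region in both lists at the start. The centres of the members' 11 overlapping pairs lay 14 to 597 bp apart, with a median of 124 bp. Eif2ak1, Eif2ak4 and Eif4a1 were the 3 without overlap. Upstream positions made up similar shares in all sets: 61.1% of the members' Nan/+ regions and 62.1% of their WT regions within 1 kb of a start had their centre upstream, against 61.5% in Nan/+ and 62.5% in WT over all genes.

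Of the 8 with a region in Nan/+ alone, 5 had only regions of 176 bp, and 2 of the 6 with an entry had a region at the start. Counted by region, 6 of their 10 had that width, near the 51.9% of Nan/+ regions over all genes. With regions of 176 bp or less left out of both lists, 3 members had a region in Nan/+ alone. Under that limit 15 members held WT regions only. Any Nan/+ region then lay at 27 of the 55 members (49.1%), against 25.1% of all genes. Any WT region lay at 39 (70.9%), against 32.3% of all genes. The limit is the minimum width of the Nan/+ list, and 7083 of 15564 Nan/+ regions and 8448 of 9181 WT regions are wider. Fewer Nan/+ regions thus entered by construction, and the change in these counts is not a difference between genotypes. The 8 genes with a region in Nan/+ alone in the full lists were 19456 to 70995 bp long. Of the 10 with a region in WT alone, 5 of the 7 with an entry had it at the start, and lengths ran over 4706 to 57570 bp. The counts at the start in these 2 classes were not compared with all genes of the same class.

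Genes of neighbouring steps of translation were counted in the same way, where 37.5% of all genes had a Nan/+ region and 33.5% a WT region. Median gene length ran from 4951 bp for the stress targets to 40426.5 bp for the signalling genes, against 17815 bp for members. These counts were not weighted for length. Of 14 genes of cap-dependent translation signalling, 12 had a Nan/+ region and 13 a WT region; Rptor had 9 in Nan/+ and 3 in WT, and Larp1 had 5 in each. Of 8 elongation factor genes 6 had a region in each list, led by Eef2k, the kinase of elongation factor 2, with 6 in Nan/+ and 7 in WT. Of 8 genes for eIF2 phosphatases and stress targets, 3 had a Nan/+ region and 7 a WT region. Ppp1r15a, the inducible eIF2 phosphatase subunit, had 2 in Nan/+ and 3 in WT, and Atf4, the activator made when eIF2 is phosphorylated, had 1 in Nan/+ and 2 in WT, with a shared region at each of these genes. Of 9 genes listed for termination and recycling 5 had a region in each list, with 3 in each at Mtrf1, a mitochondrial release factor gene. This list also held Mtif2 and Mtif3, which encode mitochondrial initiation factors, with 1 and 2 regions in Nan/+ and 0 in WT. Of 20 cytosolic aminoacyl-tRNA synthetase genes 11 had a region in each list, and Cars, for cysteine, had 4 in Nan/+ and 3 in WT.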

How the data were processed

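EKLF ChIP regions were read from 1 deposited list per genotype; the other assays of the series were not analysed here. Per the file headers, the authors called regions with HOMER on mm10 at a q of 0.01 and a fold of 4, and then compared 3 ChIP libraries with 2 input libraries placed in 3 columns by DESeq2 within HOMER (FDR 0.01, log2 fold 2). Peak size and minimum distance differed, at 175 and 300 bp for Nan/+ and 125 and 250 bp for WT. The deposited score is 1 in every row and was not used. Bowtie2 2.1, SAMtools 1.1, bcl2fastq 2.17 and deepTools 3.5 appear in the submitters' processing notes. The treatment of reads that map to several places is not given in the sources used here.

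Genes were the protein-coding genes of the RefSeq table for GRCm38.p6, without 110 on alternate loci and 269 that are Y-linked, mitochondrial or unplaced. A region was assigned to every gene whose body or 10 kb flanks held its centre. The assignment was tested on simulated data. Counts used Python 3.11.15, pandas 2.3.3, numpy 2.4.6 and scipy 1.17.1, and figures matplotlib 3.10.9. Positions are mm10, counted from 1. Every member was named or counted. Coordinates were given for the shared regions of members, for the widest region of each list, and for the kinases, Eif4ebp1, Eif4ebp2 and Eif2s1. Printed promoters lay under a region in both lists, by WT width. Other translation genes were named only where they were among the 2 with the most regions of their list, both genotypes added. Mtif2, Mtif3 and Psmc3ip were named besides, as genes whose function differs from the name of their list. Members, gene lists and motifs were chosen with earlier results of these data known.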

Additional observations from a re-analysis of the deposited data

How the results depend on the processing

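Of 45 alternative values, 36 stayed within 1.5 times of the count reported, or within its interval for a share. With 50 kb flanks, members with a region in Nan/+ alone numbered 2 and in WT alone 4, since larger flanks take in more regions. Any Nan/+ region then lay at 80.0% of members and 57.3% of all genes, and any WT region at 83.6% and 50.0%. For a region in both lists or in 1 alone, these settings were not compared with all genes. With the gene body alone, 18 members had a Nan/+ region, 19 a WT region and 10 both, against 23.5% of all genes for Nan/+ and 18.1% for WT. With regions wider than 176 bp in both lists, 3 members had a region in Nan/+ alone. With lists of equal length by width 5 did. Fewer Nan/+ regions entered by construction, and ties at 176 bp were broken by position. Under the width limit 27 members (49.1%) held any Nan/+ region and 39 (70.9%) any WT region. All genes stood at 25.1% for Nan/+ and 32.3% for WT, and 15 members held WT regions only. With equal lists 31 members (56.4%) held any Nan/+ region and 39 (70.9%) any WT region. All genes then stood at 28.1% for Nan/+ and 33.5% for WT, and 13 members held WT regions only. A reciprocal overlap of 50% left 10.8% of the members' Nan/+ regions and 10.9% of their WT regions shared, against 27.7% in Nan/+ and 25.0% in WT with 1 bp. With each region given to its nearest gene alone, 32 members had a region in each list (58.2%), against 29.4% of all genes in Nan/+ and 24.8% in WT. Among regions wider than 176 bp, 12 members had one at the start in Nan/+ and 27 in WT; this last setting was chosen after seeing the data. Each list has 1 value per setting. No paired analysis was possible because the lists combine the replicates of a genotype, and no replicate could be left out. The files hold no strength per region, so absence from a list may mean a signal just under the threshold.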
